A study of Mus musculus with 4 samples.

Results

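The galectins are sugar-binding proteins, and 5 of the 32286 features in 4 single-cell matrices are described here: Lgals1, Lgals3, Lgals8, Lgals9 and Lgals3bp, taken by their symbols. The cells came from mice of both sexes that all carry the alleles Tmem119-2A-CreERT2 and Ai6, in which Cre under the Tmem119 promoter switches on the fluorescent protein ZsGreen. One group of each sex had the middle cerebral artery on the right side permanently tied off (stroke), and the other had the surgery without it (sham). On day 3 the operated side of the brain was dissociated, passed over Percoll and sorted for live ZsGreen+ cells, with 4 mice combined in each pool. There is 1 pool for each sex and treatment, so each of the 4 groups has a single pool. The age of the mice and the induction of Cre are not given in the sources used here.

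Galectins bind galactose-containing sugars on glycoproteins, are released by cells without a signal peptide, and also act inside the cell. Galectin-1 (Lgals1) and galectin-3 (Lgals3) are made by activated macrophages, and galectin-3 is widely used as a marker of activated or phagocytic microglia. Galectin-8 (Lgals8) and galectin-9 (Lgals9) carry a pair of sugar-binding domains. Galectin-8 and galectin-3 gather on broken lysosomes, and galectin-9 is a ligand of the immune receptor Tim-3 (Havcr2). Lgals3bp is not a galectin: it is a secreted glycoprotein that binds galectin-3 and is known as an interferon-induced gene.

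The 4 matrices held 4562, 5931, 5000 and 4944 cell barcodes (in females sham then stroke, followed by males sham then stroke, an order kept below) with 29581392, 66072270, 40970923 and 52733857 UMIs, that is, counted molecules. After filtering, 18037 of 20437 barcodes were kept and clustered without the galectin genes. Clusters that carried microglia markers such as P2ry12 and Tmem119 are called microglia-like, and held 3168, 3461, 3996 and 3258 cells. The sort also held other cells: monocyte-derived macrophage-like cells numbered 12, 963, 38 and 470, neutrophil-like cells 3, 116, 5 and 68, and 226 cells in 2 clusters stayed unnamed. Pairs of pools shared 4 to 11 barcodes, and the lowest barcode held 500, 501, 4198 and 500 UMIs. Stroke microglia-like cells were deeper, with a median of 8833 and 8789 UMIs against 6175 and 5420 in sham, and had a median mitochondrial share of 4.93% and 4.56% against 2.08% and 1.18%.

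In microglia-like cells, 4 of the 5 genes rose after stroke and Lgals8 fell. The test was edgeR's quasi-likelihood test on UMIs summed per pool, with sex as a covariate, 1 residual degree of freedom and Benjamini-Hochberg adjustment over 14182 genes. In this comparison 25% of all tested genes rose and 24.9% fell. Pools of 4 mice are the units, with 1 pool for each sex and treatment. The fit joins the 1 residual degree of freedom to a median of 28.05 prior ones, taken from all genes. The SEs and p-values thus rest mostly on a spread shared over genes, and little on that of each gene between pools. A pool sum holds all microglia-like cells, so a change in the share of a cell state and a change within cells cannot be told apart in it. Levels below are UMIs per 10000 UMIs of the same cells, with exact 95% Poisson intervals that cover counting error only. Log2 changes with an SE come from the fit, which scales the pools by the trimmed mean of M values (TMM). Folds given for each sex are plain ratios of the scaled stroke and sham values of that sex, with no test.

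Lgals1 had 0.0417 (0.0332 to 0.0517) UMIs per 10000 in female sham microglia-like cells and 0.0621 (0.0524 to 0.0729) in male sham. It had 2.65 (2.60 to 2.70) in female stroke and 2.09 (2.04 to 2.13) in male stroke. Both stroke pools lay far above both sham pools, which had 83 and 147 Lgals1 UMIs in all. The change was 5.79 ± 0.20 on the log2 scale (SE, edgeR, adjusted p = 2.59e-19), with folds of 79.8 in females and 40.6 in males, larger than 99.9% of the tested genes. With cells holding 3 or more UMIs of cell cycle genes left out, the change of Lgals1 was 4.67. Such cells, counted without setting the depth equal, were 44.0% and 42.1% of stroke against 7.80% and 6.96% of sham microglia-like cells.

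Lgals3 had 0.0497 (0.0404 to 0.0605) UMIs per 10000 in female sham and 0.200 (0.182 to 0.219) in male sham. In female stroke it had 1.27 (1.24 to 1.31) and in male stroke 0.955 (0.924 to 0.987). Both stroke pools lay above both sham pools, and the male sham pool lay above the female sham pool by more than counting error. The log2 change was 3.59 ± 0.29 (SE, edgeR, adjusted p = 1.44e-11), with folds of 32.1 in females and 5.76 in males. The change of Lgals3 was 2.74 without the female sham pool and 4.87 without the male sham pool, both past the threshold. With cells holding 3 or more UMIs of 10 macrophage markers left out, it was 3.40. Those cells, counted without thinning, were 0.663%, 6.67%, 0.225% and 5.25% of the microglia-like cells. Stroke cells were deeper, and the part of depth in these shares was not tested.

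Lgals8 had 0.996 (0.953 to 1.04) and 0.891 (0.853 to 0.930) UMIs per 10000 in female and male sham microglia-like cells, and 0.565 (0.542 to 0.589) and 0.589 (0.565 to 0.614) in female and male stroke. Both stroke pools lay below both sham pools. The log2 change of Lgals8 was -0.41 ± 0.14 (SE, edgeR, adjusted p = 0.0136). The call was lost with DESeq2 (adjusted p = 0.0546), without either stroke pool, with cells thinned to 3000 UMIs and without cells holding cell cycle UMIs, where the change was -0.13. Over 15 other settings the adjusted p of Lgals8 ran from 2.08e-05 to 0.513. Lgals8 also overlaps Heatr1 on the other strand, and strand use in the counting is not stated. Heatr1 had 444, 904, 516 and 822 UMIs in the same cells.

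Lgals9 had 1.56 (1.51 to 1.62) and 1.63 (1.58 to 1.69) UMIs per 10000 in female and male sham, and 2.36 (2.31 to 2.41) and 2.31 (2.26 to 2.35) in female and male stroke. Its sham pools were already well above 0, unlike those of Lgals1 and Lgals3. The log2 change of Lgals9 was 0.85 ± 0.14 (SE, edgeR, adjusted p = 1.39e-05). Lgals3bp had 1.09 (1.04 to 1.13) and 0.988 (0.948 to 1.03) in female and male sham, and 2.65 (2.60 to 2.70) and 2.94 (2.89 to 3.00) in female and male stroke. Its log2 change was 1.73 ± 0.15 (SE, edgeR, adjusted p = 5.37e-11), with folds of 3.06 and 3.6 in females and males. For both genes the sexes lay close to each other within each treatment.

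Scaling the pools by their library totals in place of TMM moved the median log2 change of all tested genes from -0.05 to -0.34. Of the called genes, 50.1% were higher in stroke with TMM, 26.5% with library totals and 61.2% with DESeq2. With library totals the changes of Lgals1, Lgals3, Lgals8, Lgals9 and Lgals3bp were 5.49, 3.30, -0.71, 0.55 and 1.43. The directions were those of the TMM fit. In cells thinned to 3000 UMIs, which sets the depth equal, the same changes were 5.47, 3.26, -0.32, 0.75 and 1.71.

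Male against female, in the same fit, 11 of 14182 genes passed the threshold (0.0776%) and 0 of the 5 galectin genes, also 0 at an unadjusted p under 0.05 and 0 with DESeq2. The nearest was Lgals3, at a log2 difference of 0.55 ± 0.27 (SE, edgeR, adjusted p = 0.998). Whether stroke changed Lgals3 differently in the sexes could not be tested, because the interaction leaves no residual degree of freedom.

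All 5 are protein-coding genes on GRCm38, in the GENCODE M21 annotation. Lgals1 lies at chr15:78926725-78930465 (+ strand), Lgals3 at chr14:47367751-47386160 (+), Lgals8 at chr13:12439415-12464944 (-), Lgals9 at chr11:78962974-78984946 (-) and Lgals3bp at chr11:118392751-118402092 (-). RefSeq promoter windows of 300 bases were matched for 4 of the 5. The windows were searched on both strands for AANNGAAA, a core that interferon regulatory factors recognise, and for TGANTCA, the AP-1 core. These letters are present in 23.9% and 7.81% of 32851 RefSeq windows of the same length. Lgals9 held 3 matches of AANNGAAA and Lgals3bp held 1, and the windows of Lgals3 and Lgals8 held neither motif. The Lgals3 window is chr14:47373610-47373909 and the Lgals8 window chr13:12461689-12461988. Both lie inside the gene spans given above, away from their 5′ ends, which were not searched. The stretches with the matches are shown because Lgals9 and Lgals3bp were highest in the interferon cluster of microglia described below. They are RefSeq sequence (GRCm38.p6), 5′ to 3′ on the gene's own strand, minus for both, with matches to AANNGAAA on either strand in capitals.
Lgals9: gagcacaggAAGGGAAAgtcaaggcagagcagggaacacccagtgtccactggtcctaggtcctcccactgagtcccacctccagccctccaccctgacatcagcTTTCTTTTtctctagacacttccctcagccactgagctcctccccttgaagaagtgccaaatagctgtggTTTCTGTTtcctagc
Lgals3bp: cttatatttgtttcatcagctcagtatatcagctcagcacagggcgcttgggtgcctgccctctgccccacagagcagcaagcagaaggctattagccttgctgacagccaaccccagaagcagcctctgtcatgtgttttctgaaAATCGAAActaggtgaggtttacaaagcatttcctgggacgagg
The first runs over chr11:78984895-78985084 and the second over chr11:118401930-118402119, each from 160 bases before the annotated start to 30 bases from it. Counting the start as 0, the Lgals9 matches lie at -151 to -144, -55 to -48 and 15 to 22, and the Lgals3bp match lies at -14 to -7. A match is a description of the letters in these windows.

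The 10 microglia-like clusters differed more for some galectins than for others. These clusters were built from the same cells, so their levels are a description with no test. Lgals1 and Lgals3 were highest in the cluster led by Spp1, Ch25h and Igf1, which had 307 and 239 cells in the female and male stroke pools and 1 and 7 cells in sham. Lgals3 there was 5.07 (4.90 to 5.25) UMIs per 10000 in female stroke and 4.13 (3.95 to 4.31) in male stroke. The mitotic cluster led by Top2a, at 1.04 (0.98 to 1.09) and 1.04 (0.982 to 1.11), was next in females, and in males it and the Ccl4 cluster, at 1.13 (0.883 to 1.42), did not differ beyond counting error. Lgals1 had 7.26 and 5.75 in the Spp1 cluster, 2.92 and 2.75 in the Top2a cluster, and 2.20 and 1.90 in the cluster led by Cst7 and Cd72. In the clusters led by Upk1b and by Egr1, Lgals1 was between 0.106 and 0.339 in the stroke pools.

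In the sham pools the microglial Lgals3 was found mainly in another cluster. It was led by the chemokine genes Ccl4 and Ccl3, with 38 and 117 cells in the female and male sham pools. Lgals3 there was 1.63 (1.23 to 2.11) UMIs per 10000 in female sham and 3.71 (3.31 to 4.14) in male sham, against 0.773 (0.572 to 1.02) and 1.13 (0.883 to 1.42) in stroke. In that cluster both sham pools were above their stroke pools, opposite to the sum over all microglia-like cells. Lgals1 there was 0.261 and 0.471 in sham and 0.678 and 0.580 in stroke, so its sham pools were not above their stroke pools. These values rest on 9 and 40 sham UMIs and 43 and 37 stroke UMIs, and the difference was not tested. Both sham values lay above those of all sham microglia-like cells, 0.042 and 0.062. After thinning, the cluster was 1.33% and 2.93% of sham microglia-like cells. It held 10.0% and 25.4% of their Lgals1 UMIs, from 3 and 17 UMIs.

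Lgals3bp and Lgals9 were highest in the cluster led by the interferon-induced genes Ifit3 and Ifit2. Lgals3bp there was 6.59, 5.81, 4.30 and 6.25 UMIs per 10000 in the 4 pools, so it was high in sham as well as in stroke. In the Spp1 cluster it was 1.52 and 1.66 in stroke. Lgals9 was 2.95, 3.47, 2.57 and 3.41 in the interferon cluster. In stroke it ran from 1.58 in the Ccl4 cluster to 2.49 in the Cst7 cluster elsewhere in females, a narrower range than those of Lgals1 and Lgals3. Lgals8 was highest in stroke in the cluster led by Tsix and Xist, which held mainly female cells, at 1.06 and 1.16. The Top2a cluster had 0.428 and 0.443, the lowest of the female stroke pool, and the Ccl4 cluster had 0.360 in male stroke.

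**Figure D1:**
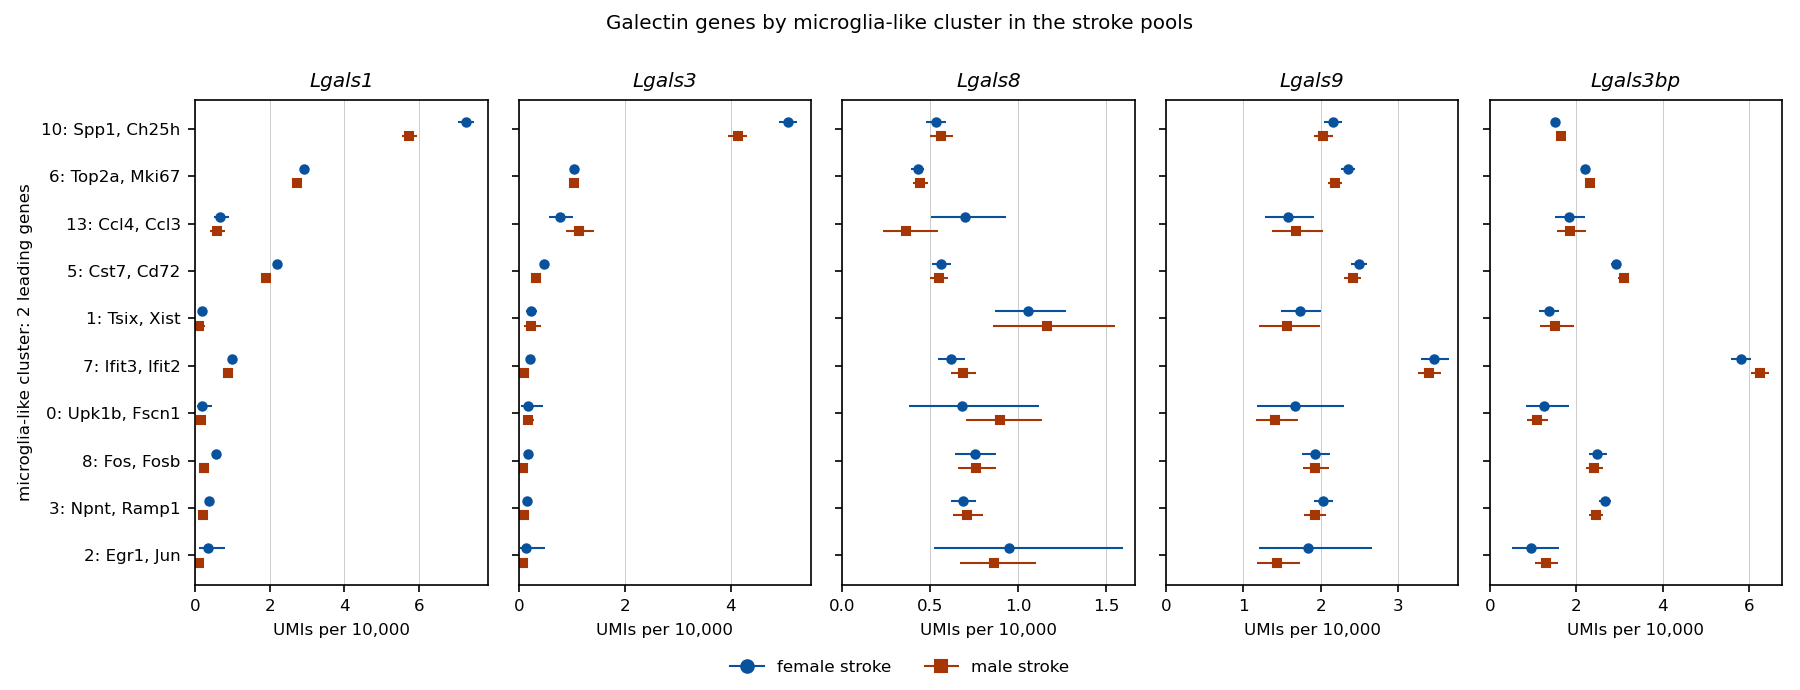
UMIs per 10000 of each gene (x axis, 1 panel a gene) in the 10 microglia-like clusters (y axis, named by 2 leading genes) of the female and male stroke pools, with exact 95% Poisson intervals as bars. Lgals1 and Lgals3 peak in the Spp1 cluster (7.26 and 5.07 in females), Lgals3bp and Lgals9 in the Ifit3 cluster.

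Across cell classes Lgals3 was highest in macrophage-like cells, at 43.8 (43.4 to 44.1) UMIs per 10000 in female stroke and 42.4 (41.9 to 42.9) in male stroke. In stroke, dendritic cell-like cells had 13.5 and 9.01. The 2 unnamed clusters together had 10.6 (9.77 to 11.5) and 10.4 (9.22 to 11.6), from 56 and 33 cells. Border-associated macrophage-like cells had 6.41 and 5.58, and neutrophil-like cells 3.98 (3.43 to 4.59) and 3.89 (3.17 to 4.73). T or NK cell-like cells had 2.46 and 1.81, choroid plexus-like cells 1.53 and 0.740 and microglia-like cells 1.27 and 0.955. The last of these exchanged places between the sexes, so their order is not fixed. In sham the macrophage-like cells had 19.1 (16.9 to 21.6) and 16.5 (15.2 to 17.8), from 12 and 38 cells.

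Sham macrophage-like cells were mostly of another kind, the cluster led by Ear2 and Itgal, with 8 and 25 cells. Within that cluster Lgals3 was 8.63, 7.87, 8.71 and 7.14 in the 4 pools. In the cluster led by the monocyte genes Plac8 and Ly6c2 it was 32.5, 26.8, 27.2 and 25.6. The stroke cells were mainly the cluster led by Fabp5, Gpnmb and Arg1, with 44.6 and 43.1 in 902 and 452 cells. Within the first 2 of these clusters no stroke pool was above its sham pool for Lgals3. These values rest on few cells: the Ear2 cluster held 8 and 4 stroke cells, and the Plac8 cluster 3 and 9 sham cells.

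Lgals1 was highest in macrophage-like and border-associated macrophage-like cells in stroke, at 21.3 and 22.5 in the former and 21.4 and 20.2 in the latter. In sham these classes had 6.25 and 7.22, and 4.35 and 7.66. The mean of the 10 macrophage markers in thinned border-associated macrophage-like cells was 0.444 and 0.821 UMIs in sham and 7.96 and 8.25 in stroke, and its part in the Lgals1 values was not tested. Lgals3 in border-associated macrophage-like cells was 0 in 11 female sham cells, and in male sham it was 5.06 from 3 of 28 cells. Lgals1 in choroid plexus-like cells was 4.12, 4.50, 3.84 and 3.76 in the 4 pools. Their female and male stroke values of Lgals1 overlapped sham within counting error. T or NK cell-like cells had Lgals1 at 4.55, 6.16, 6.17 and 5.72, also overlapping. Neutrophil-like cells had no Lgals1 UMI in sham, from 3 and 5 cells, and 1.21 (0.918 to 1.57) and 0.662 (0.385 to 1.06) in stroke.

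The other 3 genes differed less between microglia-like and macrophage-like cells of the stroke pools. Lgals9 was 2.36 and 2.31 in microglia-like cells and 2.10 and 2.08 in macrophage-like cells, and 0.779 and 0.805 in dendritic cell-like cells. Lgals3bp was 2.65 and 2.94 in microglia-like cells, 1.73 and 1.81 in macrophage-like cells, and 1.97 and 1.25 in choroid plexus-like cells. Lgals8 was lower in microglia-like cells, at 0.565 and 0.589, than in macrophage-like cells, at 0.999 and 1.0. In sham the order of Lgals8 was the opposite, with 0.996 and 0.891 in microglia-like and 0.301 and 0.604 in macrophage-like cells, the latter from 4 and 23 UMIs.

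**Figure D2:**
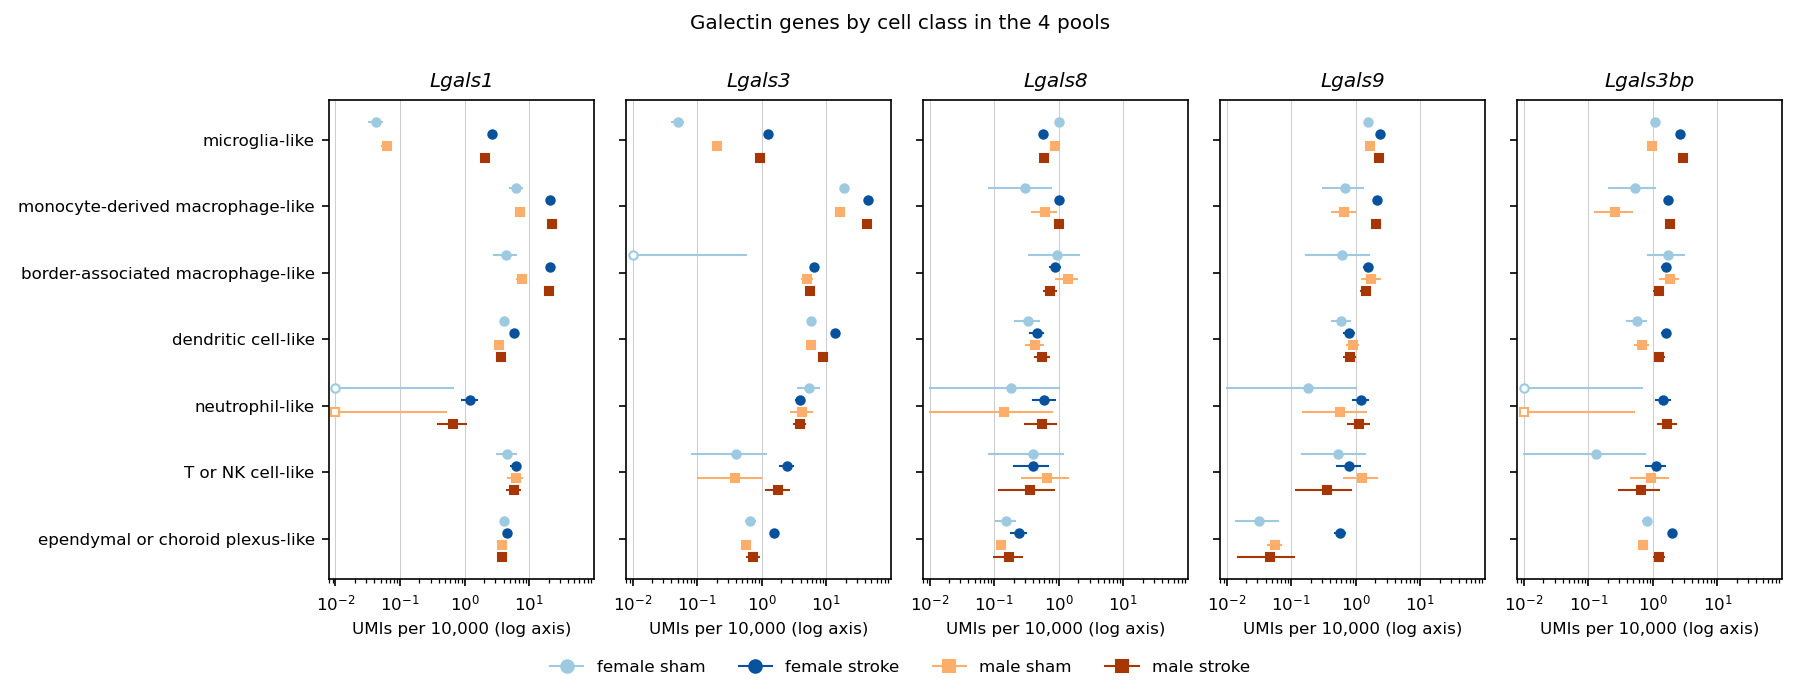
UMIs per 10000 of each gene (x axis, log scale, 1 panel a gene) by cell class (y axis) in the 4 pools, with exact 95% Poisson intervals as bars. Lgals3 in macrophage-like cells of the stroke pools (43.8 and 42.4) is far above microglia-like cells (1.27 and 0.955), while Lgals9 is close in both.

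A further question was whether microglial Lgals3 sits in few cells or is spread thinly, as free RNA from other cells would be. To compare cells of unequal depth, each was thinned to 3000 UMIs, and 304, 266, 0 and 267 shallower microglia-like cells were left out. After thinning, 12.4% (11.2 to 13.5, exact binomial) of female stroke and 9.56% (8.53 to 10.7) of male stroke microglia-like cells held an Lgals3 UMI, against 0.524% (0.293 to 0.862) and 2.10% (1.68 to 2.60) in sham. Without thinning the shares were 24.9% and 19.2% in stroke, and 1.10% and 2.93% in sham. An even spread at the same mean, a Poisson distribution, would give 25% and 17.8% in the thinned stroke cells. The variance was 4.94 and 4.53 times the mean, where an even spread gives a value near that of Lgals8, 1.09 and 1.05.

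A small number of cells held much of it. In thinned cells, 48 of 3195 female stroke (1.5%) and 26 of 2991 male stroke microglia-like cells (0.869%) had 5 or more Lgals3 UMIs. They held 39.8% and 34.2% of all the microglial Lgals3 UMIs. The top 5% of cells held 73.5% and 76.8%. For Lgals1 the top 5% held 43.1% and 49.3%, with a variance of 2.58 and 2.71 times the mean. Lgals9 had 1.17 and 1.06 and Lgals3bp 1.55 and 1.72, and their top 5% of cells held between 21.2% and 25.9%. The share in the top cells also depends on the mean of a gene, and its value for an even spread was not computed.

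The cells with 5 or more Lgals3 UMIs were compared for macrophage markers, which number 10 and include Ccr2, Ly6c2 and Arg1. After thinning, their mean was 0.104 and 0.192 marker UMIs per cell in female and male stroke, with a median of 0. None of them had 3 or more. The cells with 2 to 4 Lgals3 UMIs held 35.6% and 35.4% of the Lgals3 UMIs. Of these cells, only 2 of 121 (1.65%) and 3 of 82 (3.66%) had 3 or more marker UMIs. With 1 Lgals3 UMI it was 2 of 226 and 0 of 178 cells. With no Lgals3 UMI it was 10 of 2800 (0.357%) and 12 of 2705 (0.444%). In macrophage-like cells the mean of the marker UMIs was 18.2 and 13.7. Microglia-like cells with no Lgals3 UMI had a mean of 0.18 and 0.138. The median of the 10 microglia markers was 18 and 20 UMIs in the cells with 5 or more, 57 and 59 in those with none, and 3 in macrophage-like cells of either stroke pool.

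Of the cells with 5 or more Lgals3 UMIs, 37 of 48 and 19 of 26 belonged to the Spp1 cluster. That cluster was 9.33% and 7.79% of thinned stroke microglia-like cells and held 59.6% and 56.4% of their Lgals3 UMIs. Within it 52.4% and 51.1% of cells had an Lgals3 UMI, where an even spread at its mean would give 84.1% and 75.8%. Across its cells with 0, 1, 2 to 4 and 5 or more Lgals3 UMIs, the median of the microglia markers was 31, 27, 22 and 18 in females and 32, 30, 26 and 22 in males. The mean of Lgals1 over the same cells was 1.61, 2.22, 2.74 and 2.68 in females and 1.47, 1.80, 2.59 and 3.32 in males. In the sham pools the Ccl4 cluster held 22 of 32 and 114 of 178 thinned Lgals3 UMIs, and all 2 and 6 cells with 5 or more.

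A single source of free RNA keeps its genes in 1 ratio in every cell type of a pool, so the microglia-like level was set against the macrophage-like level of the same pool. Lgals3 was 2.91% and 2.25% of the macrophage level in female and male stroke. The 10 macrophage markers ran from 0.282% to 10.5% (median 1.0%) in females and from 0.104% to 10.2% (median 1.38%) in males. Lgals3 thus lay inside the range of the markers, above their median in both pools. Lgals1 was 12.4% and 9.30%, above 10 of 10 markers in females and below Itga4 in males. Lgals8 was 56.6% and 58.7%, Lgals9 112.5% and 111%, and Lgals3bp 153% and 162%.

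**Figure D3:**
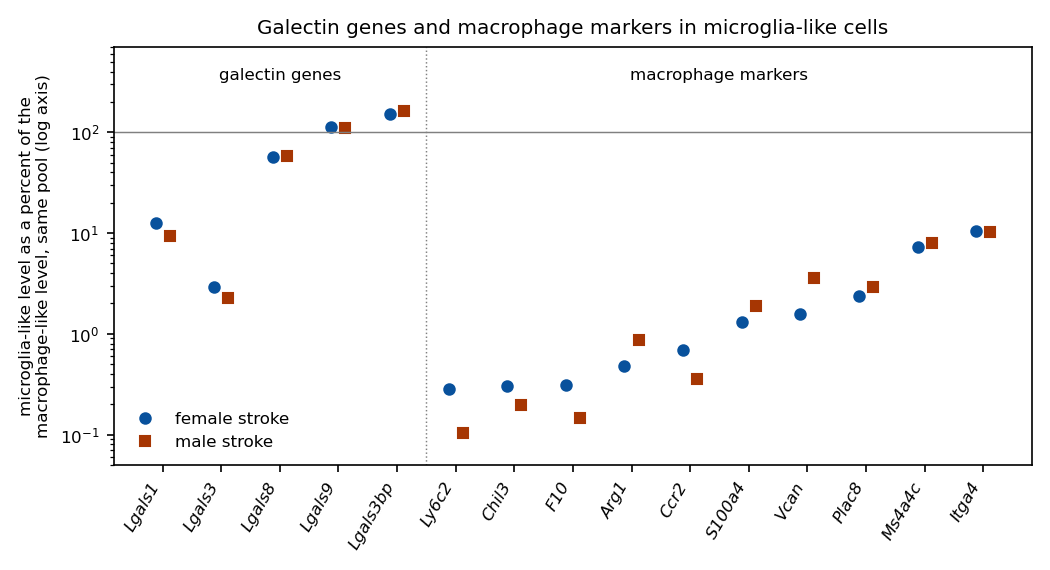
Microglia-like level as a percent of the macrophage-like level of the same stroke pool (y axis, log scale) for the 5 galectin genes and the 10 macrophage markers. Lgals3, at 2.91% and 2.25%, lies within the range of the markers, and Lgals9 and Lgals3bp lie above 100%.

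The ratio differed between microglia-like clusters. Macrophage-like cells had 0.790 and 1.0 Lgals3 UMIs per macrophage-marker UMI in female and male stroke. The Spp1 cluster had 7.68 and 4.85, from 415 and 430 marker UMIs. The Ccl4 cluster had 2.04 and 8.0, from only 24 and 9 marker UMIs. The Top2a cluster had 1.67 and 1.38. The Cst7 cluster had 0.775 and 0.727 and the interferon cluster 0.219 and 0.108, at or below the macrophage ratio. Lgals3 per marker UMI was thus above that of macrophage-like cells in some clusters of the stroke microglia and not in others. The interferon cluster also had the highest mean of these markers in thinned stroke microglia-like cells, at 0.257 and 0.2915 UMIs. The markers were not equally scarce in microglia-like cells: Ms4a4c was at 7.25% and 7.88% of the macrophage level and F10 at 0.307% and 0.146%. Marker UMIs made by microglia-like cells would lower the ratio. Neither this nor the part of free RNA or of doublets was tested in any of the clusters, above or below the macrophage ratio.

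**Figure D4:**
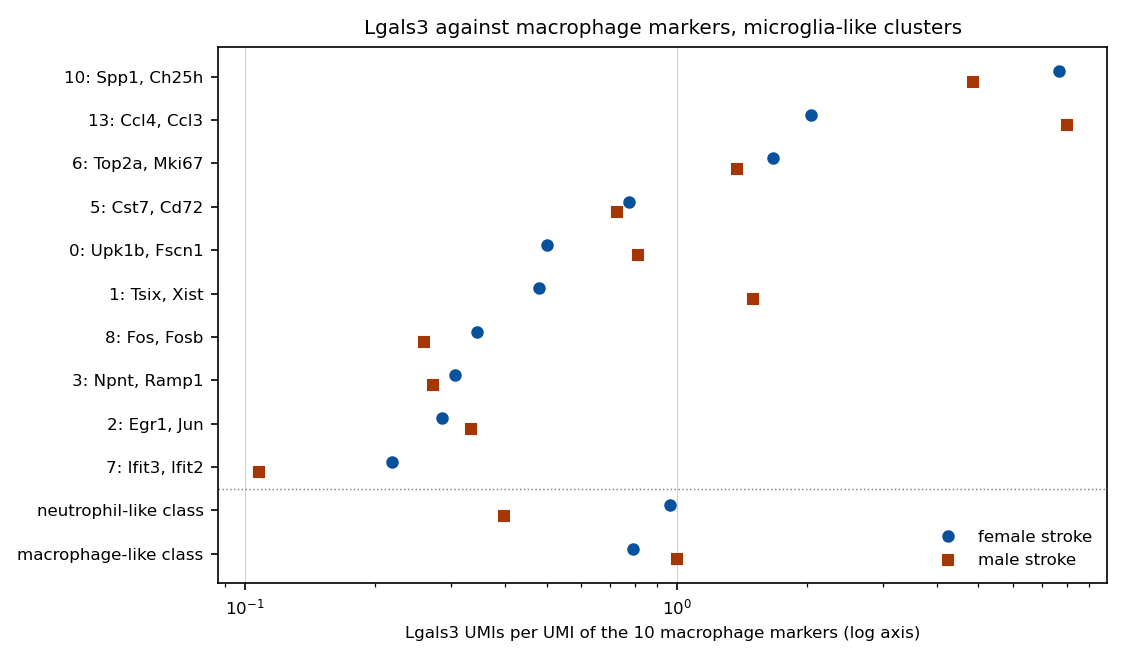
Lgals3 UMIs per UMI of the 10 macrophage markers (x axis, log scale) in macrophage-like cells and microglia-like clusters (y axis) of the female and male stroke pools. The Spp1 cluster has 7.68 and 4.85 against 0.790 and 1.0 in macrophage-like cells, and the Ifit3 cluster has 0.219 and 0.108.

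The share of cells with an Lgals3 UMI was also compared with that of other classes thinned to the same depth. In choroid plexus-like cells 21%, 30.9%, 15.7% and 11.9% had one, near the 21.2%, 37.4%, 16.6% and 13.3% of an even spread, and none had 5 or more. Before thinning these cells had a median of 21312 UMIs over all pools. T or NK cell-like cells had 43.8% and 31.6% in 32 and 19 stroke cells. The T or NK cell-like stroke cells had a mean of 8.31 and 10.2 macrophage-marker UMIs, against 0.179 and 0.144 in microglia-like cells. In sham, T or NK cell-like cells had 6.11 and 3.17, from 9 and 12 cells. The source of these marker UMIs was not tested. Choroid plexus-like cells had 1.15 and 15.8 Lgals3 UMIs per macrophage-marker UMI in female and male stroke, and neither class is taken here as one that lacks Lgals3. The microglia-like share of 12.4% and 9.56% lay below that of both classes in the same pool. In sham, neuron-like cells had an Lgals3 UMI in 0 of 282 female cells, which allows a share of up to 1.06%, and in 4.38% of 137 male cells. The sham microglia-like shares were 0.524% and 2.10%, and the part of free RNA in them was not tested. In the male sham pool 5 of 7 cells of the Spp1 cluster had an Lgals3 UMI, with 13 UMIs in all. Among 65 and 31 stroke neutrophil-like cells 35.4% and 41.9% had one, and the variance was 7.07 and 7.58 times the mean, so there too the UMIs sat in some of the cells. In macrophage-like cells of the stroke pools the share was 99.0% and 98.7%.

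Among other galectins, Lgals2, Lgals4, Lgals7 and Lgalsl were tested in microglia-like cells and 0 of 4 passed in either direction (edgeR, with 0 at an unadjusted p under 0.05, and 0 with DESeq2), with a median log2 change of 0.27 against -0.05 over all tested genes. Of all tested genes 25% rose and 24.9% fell. These 4 galectins were scarce: Lgalsl had 102, 184, 120 and 164 UMIs and the other 3 between 8 and 35 in a pool. Lgals12 had 0 UMIs in the microglia-like cells of every pool.

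Of 14 partners of galectins at the cell surface and in lysosomes, 6 rose, 3 fell and 5 did not pass (edgeR), with a median log2 change of 0.34. Over all tested genes 25% rose and 24.9% fell. The hyaluronan receptor Cd44 rose from 1.99 and 1.56 CPM (UMIs scaled to equal library size by edgeR) in female and male sham to 16 and 11.4 in stroke, by 2.94 ± 0.21 on the log2 scale. Podoplanin (Pdpn) rose by 4.28 ± 0.62 from 0 and 0.156 to 2.17 and 1.29 CPM, a size that depends on the prior count of the fit. The protein disulfide isomerase P4hb, a partner of galectin-9, rose by 0.94 ± 0.14. Mertk, a receptor for dying cells that binds galectin-3, fell by 0.85 on the log2 scale. Havcr2, which encodes Tim-3, fell by 0.59. Trem2, a lipid receptor that binds galectin-3, was at -0.10 ± 0.15 and did not pass (adjusted p = 0.633). The partners thus moved in both directions, and with DESeq2 6 rose and 2 fell, beside 2784 higher and 1763 lower over all genes.

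Of 10 enzymes that build or mask galectin ligands, 2 rose, 2 fell and 6 did not pass, with a median of 0.02. For this list and the next, the shares over all tested genes were again 25% higher and 24.9% lower. The mannosidase Man2a1 rose by 1.74 ± 0.15, from 24.6 and 16.9 CPM in sham to 69.5 and 67.0 in stroke. Mgat5, which makes branched sugars that galectin-3 binds, rose by 0.35 ± 0.13. Mgat1 fell by 0.61 and Mgat4a by 0.38. With DESeq2 1 of the 10 rose and 1 fell, where 2784 genes were higher and 1763 lower in all. Of 18 genes of the response to broken lysosomes, 6 rose, 4 fell and 8 did not pass, with a median of -0.12. Gabarap and Vcp, of autophagy and of protein extraction from membranes, rose by 0.80 ± 0.15 and 0.73 ± 0.14. Plaa, a partner of Vcp, rose by 0.62 ± 0.14 and Chmp4b, of the ESCRT membrane repair complex, by 0.53 ± 0.14. With DESeq2 6 of the 18 rose and 0 fell, so the 4 that fell with edgeR rest on that tool. The medians of both lists were near that of all tested genes.

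Genes with the most similar pattern were ranked by Pearson's r of log2(UMIs per 10000 + 0.1) over 20 class by pool sums of 8 classes with 50 or more cells, among 8391 genes. The sums of a class or pool share libraries and depth, so r is a description. For Lgals3 the first were Vim (r = 0.960), Dnase1l1, Anxa2, Ifi211 and Anxa5 (0.916). For Lgals1 they were Anxa5 (0.943), Mdfic, Dab2, Apoe and Sh3bgrl (0.891). For Lgals9 they were Grn (0.985), Fcgr1, Gusb, Cd68 and Hexa (0.969). For Lgals8 they were Faim (0.943), Nras, Cerk, Arl8b and Brd7 (0.897), and for Lgals3bp Prelid3b (0.941), Mydgf, Glmp, Bag1 and Ran (0.922). Among the 5 genes, r was highest for Lgals1 with Lgals3 (0.821), then Lgals8 with Lgals9 (0.803) and Lgals9 with Lgals3bp (0.726), and lowest for Lgals1 with Lgals8 (0.0205).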

How the data were processed

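The deposited values are UMI counts, whole numbers per gene and cell barcode for 32286 features in each of 4 pools of sorted brain cells (10x Genomics 3' v3.1). The authors counted them with Cell Ranger on mm10, which is version 7.1.0 per the submitters' processing notes and 6.1.2 per the file headers, and the disagreement was not settled. Total counts per pool ran from 29581392 to 66072270.

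From these counts, barcodes with at least 500 genes, 1000 UMIs and at most 10% mitochondrial UMIs were kept (18045). Scrublet in scanpy 1.11.5 marked 8 of them (0.0443%) as doublets, a share so low that it has not worked, so doublets remain. Cells were clustered (2000 variable genes without genes named Lgals, 30 components, 15 neighbours, Leiden resolution 0.8 with leidenalg 0.10.2) into 23 clusters, which were named from marker lists. A cluster had to carry 3 or more markers of a class, each in at least 25% of its cells. The naming rule was chosen after the data were seen, and the 5 genes and all gene lists were chosen with earlier results of these data known. Names rebuilt in this way may differ from the study's own.

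Microglia-like UMIs were summed per pool and tested with edgeR 4.0.16 (quasi-likelihood, TMM, sex and treatment as terms, R 4.3.3), with DESeq2 1.42.0 as an alternative. The threshold is an adjusted p of 0.05. Self-tests used simulated counts. The genes named are the 5 galectin genes, up to 4 genes of each fixed list with the largest change past the threshold, genes needed in a comparison, and the 5 most similar genes to each galectin gene. Havcr2 and Trem2 were named after their values were seen. Intervals are 95% and the limit for a count of 0 is 3 counts. UMIs of 1 cell or pool share a library, so these intervals cover counting error only.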

Additional observations from a re-analysis of the deposited data

Results flagged for a closer look

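The direction of the stroke change in a class was in some cases opposite to that in microglia-like cells in both sexes. Each value is the log2 ratio of stroke to sham UMIs per 10000, with 1 pool a group, and the differences were not tested. The stroke and sham Poisson intervals overlapped in both sexes in each of these cases except Lgals8 in macrophage-like cells. In neutrophil-like cells Lgals3 was at -0.45 in females and -0.11 in males, against 4.68 and 2.26 in microglia-like cells, with only 3 and 5 sham neutrophil-like cells. Those sham cells had a mean of 14.3 and 13.6 macrophage-marker UMIs after thinning, against 1.22 and 2.45 in stroke, and a median of 18660 and 17670 UMIs before it, against 3156 and 2822. Lgals8 was at 0.45 and 0.38 in dendritic cell-like cells, at 0.66 and 0.40 in choroid plexus-like cells and at 1.73 and 0.73 in macrophage-like cells, against -0.82 and -0.60 in microglia-like cells. The sham macrophage-like cells had 4 and 23 Lgals8 UMIs and were mostly of the Ear2 cluster. Lgals3bp was at -0.094 and -0.57 in border-associated macrophage-like cells, against 1.29 and 1.58 in microglia-like cells.

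Barcodes that failed the cell filters (555, 949, 43 and 845), which no comparison uses, also held galectin UMIs, and more per 10000 in stroke than in the sham pool of the same sex for 4 of the 5 genes. Lgals3 was 0.907 in female stroke against 0.574 in sham, and 0.853 against 0.404 in males. Lgals9 was 0.895 against 0.0568 in females and 0.889 against 0.0168 in males. Lgals8 was 0.337 against 0.230 in females and 0.385 against 0.185 in males, where the intervals overlapped. Lgals3bp was 2.22 against 0.825 in females and 2.23 against 0.573 in males. Lgals1 was lower in stroke, at 2.50 against 3.095 in females and 2.28 against 3.97 in males. The male sham matrix holds no barcode under 4198 UMIs, so its failed barcodes are of another kind.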

How the results depend on the processing

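No paired analysis was possible because the labels give no replicate numbers and there is 1 pool for each sex and treatment. Over 15 alternative settings Lgals1 (4.67 to 6.22), Lgals3 (2.74 to 4.87), Lgals9 (0.55 to 0.97) and Lgals3bp (1.43 to 1.94) kept their direction and their call in 15 of 15. Lgals8 (-0.71 to -0.13) kept its direction in all and its call in 10. It lost it with DESeq2 (-0.37), with cells thinned to 3000 UMIs (-0.32), without cell cycle cells (-0.13), and without the female or male stroke pool (-0.37 and -0.44). The fits without a pool have no sex term and assume that a lone pool varies like the others.

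The genes higher in stroke numbered 3548, with 2277 by library totals, 2065 without cell cycle cells and 2323 to 4452 with 1 pool left out. Those lower numbered 3528, with 6315 by library totals, 1763 with DESeq2, 1906 thinned, 1721 without cell cycle cells and 1674 to 3971 with 1 pool left out (1674 without the female and 1816 without the male stroke pool). Between the sexes, Lgals1 (0.16) and Lgals8 (0.011) turned to male higher with DESeq2, and genes lower in males numbered 3 in place of 6. The share of stroke microglia-like cells with an Lgals3 UMI moved with depth: 9.79% and 7.52% at 2000 UMIs, 16.4% and 13.3% at 5000, 24.9% and 19.2% unthinned, and 14.3% and 11.8% with the stricter cell filter. That filter gave 1.57 and 1.29 Lgals3 UMIs per 10000. With the galectin genes kept for clustering, macrophage-like Lgals3 was 40.3 and 36.8. The shares and clusters depend on rebuilt names and on 1 pool a group, and the causes of these shifts were not tested.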
